A study of Mus musculus with 6 samples.

Results

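The 9 genes described here encode the calsequestrins and the proteins of the junctional sarcoplasmic reticulum, the face of the muscle calcium store that meets the cell membrane: Casq1, Casq2, Trdn, Asph, Hrc, Jph1, Jph2, Tmem38a and Tmem38b. They were taken by gene symbol, all 9 were among the 24062 symbols of the deposited count table, and all 9 were among the 13629 genes with enough reads to be tested. RNA was sequenced from both heart ventricles of 1-day-old male mice of the strain C57/Bl6N, in 3 libraries from Cre-positive mice in which Med12 was deleted in the heart (Med12cKO, CrePOS) and 3 libraries from Cre-negative control mice (CreNEG). Because Cre was present in 1 group alone, its own effect and that of losing Med12 cannot be told apart. The promoter that drove Cre, the Med12 allele and its state in the control mice, and whether a library came from 1 animal are not given in the sources used here, so the spread between libraries may be technical. Med12, an X-linked gene, encodes a part of the kinase module of Mediator, the large complex through which transcription factors act on RNA polymerase II. Ventricular RNA comes from several cell types, and fewer cells of a type and less RNA per cell cannot be told apart.

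At each heartbeat, calcium that enters through the cell membrane opens ryanodine receptors, and the sarcoplasmic reticulum releases its stored calcium onto the contractile filaments. Calsequestrins are acidic proteins that hold this calcium inside the store, next to the release channel. Triadin and junctin anchor calsequestrin to the channel, junctophilins hold the store and the cell membrane together, and TRIC channels carry the potassium that balances the charge lost with calcium. Casq2 is the cardiac calsequestrin and Casq1 the main one of fast skeletal muscle.

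The acidic end of each calsequestrin can be read in its coding sequence, and the ends of both genes are shown because the results turn on how this pair of related genes divides the calsequestrin RNA. The last 90 coding bases before the stop codon are given 5′ to 3′ on the coding strand, from the GENCODE M21 transcripts (GRCm38), with the codons that start with GA, which encode aspartate or glutamate, in capitals.
Casq1: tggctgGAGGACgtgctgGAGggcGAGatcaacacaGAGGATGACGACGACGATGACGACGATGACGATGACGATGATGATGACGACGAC
Casq2: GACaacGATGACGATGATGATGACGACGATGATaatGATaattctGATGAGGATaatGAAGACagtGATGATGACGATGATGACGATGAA
Of the last 30 codons, 22 in Casq1 and 24 in Casq2 encode an acidic residue. Over the whole coding sequence the share was 28.4% of 405 codons in Casq1 and 26.6% of 418 codons in Casq2. Hrc, the histidine-rich calcium-binding protein of the same compartment, had 30.8% acidic codons and 11.1% histidine codons. In the membrane-spanning channels of the set the acidic share was 7.05% for Tmem38a and 7.53% for Tmem38b. The coding sequences of Casq1 and Casq2 were identical at 69.1% of aligned bases, and their longest identical run was 25 bases. Those of Jph1 and Jph2 were identical at 63.9% with a longest run of 35 bases, and those of Tmem38a and Tmem38b at 58.8% with a longest run of 11 bases.

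The libraries held between 8453346 and 10150557 counts in Med12cKO and between 8930340 and 10911698 counts in control. Values are CPM, that is counts divided by TMM-adjusted library sizes, and each mean ± SD has n = 3. Med12, the targeted gene, measured 61.6, 85.0 and 41.3 CPM in Med12cKO replicates 1 to 3, against 103, 176 and 113 CPM in control replicates 1 to 3. Every Med12cKO library lay below every control library, at a log2 fold change of −1.06 (SE 0.30). DESeq2 called Med12 (adjusted p = 0.025) and edgeR's quasi-likelihood test did not (adjusted p = 0.765). Genes of T cells and thymus averaged 79.1 CPM in Med12cKO replicate 1 and 78.7 CPM in control replicate 3, and between 0.343 and 0.541 CPM in the other 4 libraries. Med12cKO replicate 1 also held more transcripts of skeletal muscle, as described with Casq1 below.

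Casq1 RNA was 4.76 times as abundant in Med12cKO ventricles as in control ventricles. Casq2 and Jph1 were also higher in each Med12cKO library than in any control library, by 33.6% and 29.5%, while the other 6 genes had overlapping groups. None of the 9 passed edgeR's test over all genes (0 of 9 at an adjusted p under 0.05, against 0.022% of all genes tested), and 3 reached p under 0.05 before adjustment, as did 3.78% of the whole table. DESeq2 called Casq1 and none of the other 8, against 0.508% of the genes to which it gave an adjusted p. Med12cKO lay wholly above control for 3 of the 9, against 4.59% of all genes, and wholly below for 0, against 3.64%. All 9 log2 fold changes were above 0, with a median of 0.17, while 52.2% of all genes tested were above 0 with a median of 0.01. These counts describe the set and are no test of it.

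**Figure D1:**
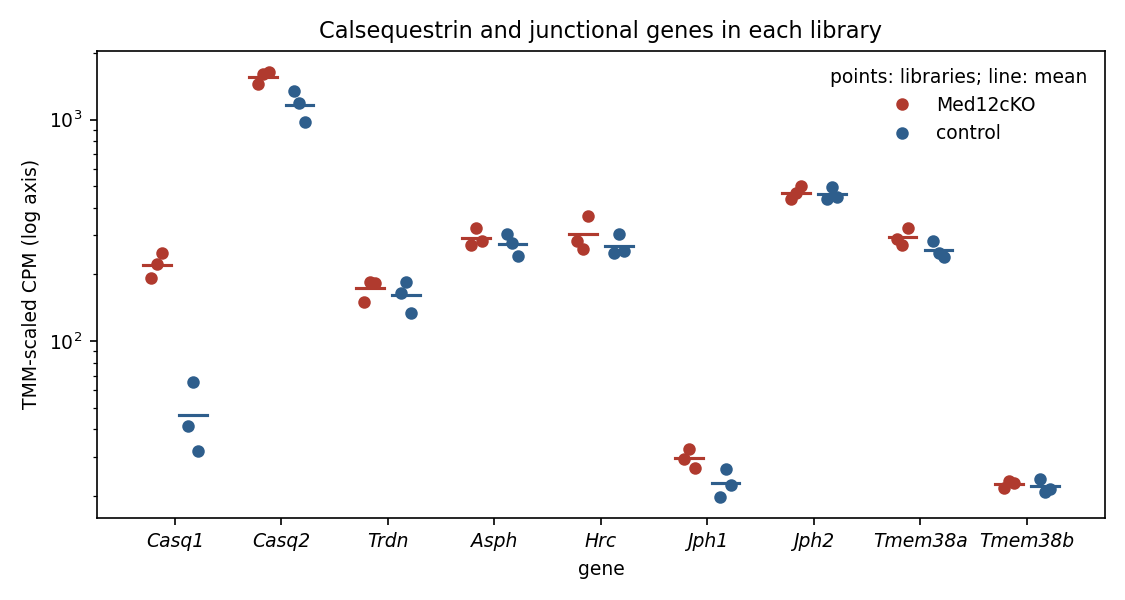
TMM-scaled CPM on a log axis for the 9 genes, with a point for each library and a line at the mean of 3 libraries. The 3 Med12cKO points of Casq1 lie between 192 and 249 CPM, above the control points between 32.0 and 65.7 CPM, and the groups of Trdn, Asph, Hrc, Jph2, Tmem38a and Tmem38b overlap.

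Casq1 (chromosome 1, 172209894 to 172219868, minus strand, GRCm38) measured 192, 222 and 249 CPM in Med12cKO replicates 1 to 3, against 41.7, 65.7 and 32.0 CPM in control replicates 1 to 3. The lowest Med12cKO library was far above the highest control library, control replicate 2, and the groups did not overlap. These values rest on 1707, 2253 and 2314 counts in Med12cKO and 362, 690 and 335 counts in control. The means were 221 ± 28.3 CPM in Med12cKO and 46.5 ± 17.4 CPM in control, a log2 fold change of 2.25 (SE 0.25, 95% interval 1.66 to 2.84). In edgeR's quasi-likelihood test the adjusted p over all genes was 0.068, and DESeq2 gave 2.15e-18. Casq1 had the fourth lowest edgeR p of all genes tested, and 5 genes had a larger positive log2 fold change. Permuting the libraries (exact, two-sided, log2 CPM) gave p = 0.10, the smallest p that 3 against 3 libraries allow. Without control replicate 2 edgeR called Casq1 (log2 fold change 2.59, adjusted p = 0.0049), as it did without control replicate 3 (2.04, adjusted p = 0.031). Without any one of the other 4 libraries it was not called (adjusted p of 0.085 to 0.609). Of the exon bases of Casq1, 7.996% are shared with an antisense gene model on the opposite strand. Whether reads were counted by strand is not given in the sources used here.

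Casq2 (chromosome 3, 102086415 to 102146514, plus strand), the calsequestrin of heart muscle, measured 1441, 1603 and 1638 CPM in Med12cKO, against 1346, 1182 and 976 CPM in control. The groups did not overlap, but the gap between the lowest Med12cKO library and control replicate 1 was smaller than the spread within the control group. Means were 1561 ± 105 CPM in Med12cKO and 1168 ± 185 CPM in control, a log2 fold change of 0.42 (SE 0.16, 95% interval 0.06 to 0.78). It did not pass edgeR (unadjusted p = 0.027, adjusted p = 0.9999) or DESeq2 (adjusted p = 0.280).

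The share of Casq1 among all calsequestrin counts does not depend on library scaling. It was 11.8%, 12.2% and 13.2% in Med12cKO replicates 1 to 3, with 95% Wilson intervals of 11.3 to 12.3%, 11.7 to 12.7% and 12.7 to 13.7%. In control replicates 1 to 3 it was 3.00%, 5.27% and 3.18%, with intervals of 2.71 to 3.32%, 4.90 to 5.66% and 2.86 to 3.53%. No interval of a Med12cKO library reached that of a control library, and the intervals cover counting error only. The mean share was 12.4 ± 0.73% in Med12cKO and 3.82 ± 1.26% in control, a difference of 8.57 percentage points (exact two-sided permutation p = 0.10, the smallest possible). Casq2 remained the larger part in every library. Casq1 and Casq2 together came to 1633, 1825 and 1887 CPM in Med12cKO, against 1387, 1248 and 1008 CPM in control. The mean of this sum was 1.47 times as high in Med12cKO (exact permutation p = 0.10).

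**Figure D2:**
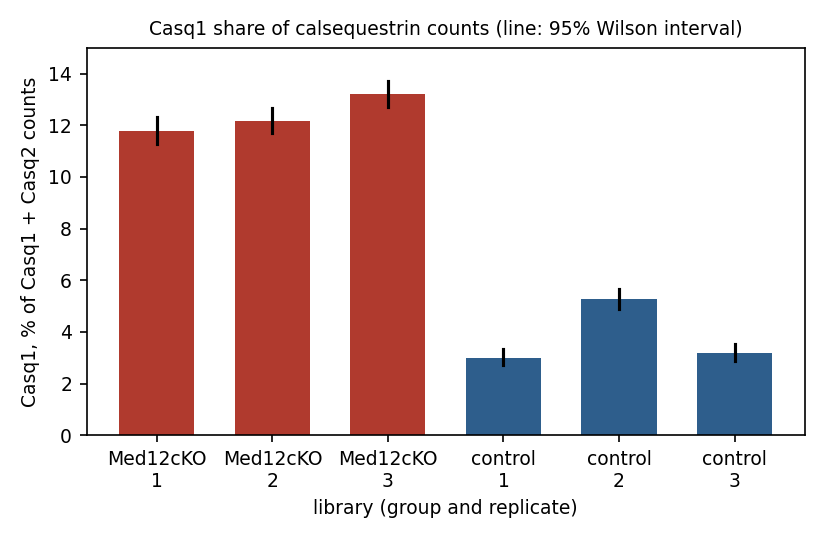
Casq1 as a percentage of Casq1 and Casq2 counts in each library, with 95% Wilson intervals as lines. The 3 Med12cKO bars stand between 11.8% and 13.2% and the 3 control bars between 3.00% and 5.27%.

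Among the proteins that tie calsequestrin to the release channel, neither Trdn nor Asph differed beyond the spread between libraries. Trdn (chromosome 10, 33080554 to 33476709, plus strand), which encodes triadin, measured 151, 186 and 183 CPM in Med12cKO, against 165, 185 and 135 CPM in control. The lowest value of both groups together was in control replicate 3, and the groups overlapped almost entirely. Its log2 fold change was 0.10 (SE 0.15), and the 95% interval ran from 14.996% lower to 35.0% higher in Med12cKO. Asph (chromosome 4, 9448069 to 9669344, minus strand) encodes junctin and, from the same gene, junctate and the enzyme aspartyl/asparaginyl β-hydroxylase. It measured 272, 323 and 284 CPM in Med12cKO, against 305, 278 and 243 CPM in control, and the groups overlapped. The log2 fold change was 0.09 (SE 0.13), with an interval from 13.5% lower to 31.0% higher. The table has 1 count per gene, so junctin was not separated from the other products among the 20 annotated Asph transcripts, nor cardiac from skeletal triadin among the 8 of Trdn. Exons of Clvs1 on the opposite strand cover 14.3% of the exon bases of Asph, and Clvs1 itself had 15 to 28 counts in Med12cKO libraries and 7 to 9 in control libraries.

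Hrc (chromosome 7, 45335290 to 45338974, plus strand), which binds calcium in the store and interacts with triadin, measured 284, 261 and 366 CPM in Med12cKO, against 251, 303 and 255 CPM in control. Med12cKO replicate 3 was the highest, while replicates 1 and 2 lay within the control range. The log2 fold change was 0.17 (SE 0.16), with a 95% interval from 11.7% lower to 43.4% higher.

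Of the junctophilins, Jph1 was somewhat higher in Med12cKO and Jph2 was nearly level. Jph1 (chromosome 1, 16964560 to 17097889, minus strand), the main junctophilin of skeletal muscle, measured 29.4, 32.7 and 26.9 CPM in Med12cKO, against 19.9, 26.4 and 22.4 CPM in control. The groups did not overlap, but Med12cKO replicate 3 and control replicate 2 lay only a little apart. These are among the lowest values of the 9 genes, from 250 to 331 counts in Med12cKO and 173 to 277 counts in control. The log2 fold change was 0.37 (SE 0.15, 95% interval 0.03 to 0.72; unadjusted p = 0.036 in edgeR's quasi-likelihood test), and it passed neither edgeR nor DESeq2 over all genes. Jph2 (chromosome 2, 163336242 to 163397993, minus strand), the cardiac junctophilin, measured 436, 466 and 501 CPM in Med12cKO, against 438, 496 and 449 CPM in control. The groups covered nearly the same range. The log2 fold change of Jph2 was 0.02 (SE 0.12), with a 95% interval from 16.5% lower to 23.0% higher. The number of Jph2 counts per Jph1 count was 14.8, 14.3 and 18.6 in Med12cKO, against 22.0, 18.8 and 20.1 in control. Med12cKO lay below control in this ratio as well, by a margin between Med12cKO replicate 3 and control replicate 2 that was small beside the spread (exact permutation p = 0.10).

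The TRIC channel genes did not differ beyond the spread. Tmem38a (chromosome 8, 72572055 to 72587282, plus strand), which encodes TRIC-A of excitable tissues, measured 288, 272 and 325 CPM in Med12cKO, against 283, 250 and 240 CPM in control. Med12cKO replicate 3 was the highest, and replicate 2 fell below control replicate 1. The log2 fold change was 0.20 (SE 0.13), with a 95% interval from 5.97% lower to 39.6% higher. Tmem38b (chromosome 4, 53826045 to 53862019, plus strand), which encodes the widely expressed TRIC-B, measured 21.9, 23.5 and 23.0 CPM in Med12cKO, against 23.9, 20.96 and 21.5 CPM in control. The groups overlapped. The log2 fold change was 0.04 (SE 0.13), with an interval from 16.5% lower to 27.1% higher.

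**Figure D3:**
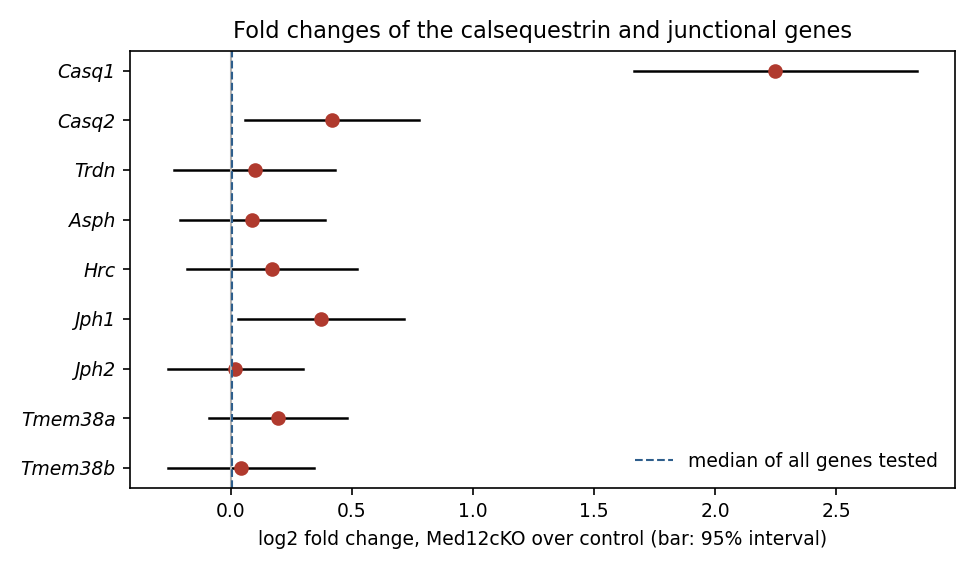
Log2 fold change of each gene, Med12cKO over control, with its 95% interval from edgeR, and the median of all genes tested as a dashed line. Casq1 stands apart at 2.25, the intervals of Casq2 and Jph1 end just above 0, and those of the other 6 genes span 0.

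Levels can be compared between genes only per length, so CPM was divided by the kilobases of annotated exon of each gene. On this scale Casq2 was the most abundant of the set, at 570 ± 38.6 CPM per kilobase in Med12cKO and 427 ± 67.8 in control. Tmem38a followed with 138 ± 12.7 and 120 ± 10.5 CPM per kilobase in Med12cKO and control, then Hrc with 118 ± 21.5 and 105 ± 11.2, and Jph2 with 110 ± 7.62 and 108 ± 7.23. The per-library ranges of Tmem38a, Hrc and Jph2 overlapped in control. Casq1 was at 113 ± 14.5 CPM per kilobase in Med12cKO, with libraries from 98.7 to 128, a range that overlapped those of Hrc (102 to 143) and Jph2 (102 to 118). In control Casq1 was at 23.8 ± 8.90 CPM per kilobase, with libraries from 16.4 to 33.7, a range that overlapped those of Trdn (14.4 to 19.8) and Asph (15.1 to 19.0). Trdn was at 18.5 ± 2.06 CPM per kilobase in Med12cKO and 17.3 ± 2.73 in control, and Asph at 18.2 ± 1.68 and 17.1 ± 1.94. Their annotated exons include many alternative ones, so transcripts in use may be shorter and these 2 values too low. Tmem38b, at 5.99 ± 0.22 and 5.82 ± 0.42 CPM per kilobase, and Jph1, at 5.94 ± 0.58 and 4.58 ± 0.65, were lowest and overlapped in Med12cKO.

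Casq1 is a gene of skeletal muscle, and skeletal muscle markers were examined beside it. Of 23 markers, 20 were highest in Med12cKO replicate 1 among the 6 libraries. The number of markers above every control library was 21 in Med12cKO replicate 1, 9 in replicate 2 and 8 in replicate 3. The share of all genes above every control library was not computed for single libraries, so these numbers have no background beside them. Some markers rest on few counts: Myh4 had 2 counts each in Med12cKO replicates 2 and 3 and in control replicate 2. The summed level of the 23 markers was 1896 to 3043 CPM in Med12cKO and 2157 to 2811 CPM in control, most of it from Ckm, the muscle creatine kinase that heart muscle also expresses. Without Ckm the sum was 371, 121 and 104 CPM in Med12cKO replicates 1 to 3, against 107, 111 and 97.1 CPM in control. Casq1 did not follow that order: it was lowest of the Med12cKO group in replicate 1, at 192 CPM, and higher in replicates 2 and 3.

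Single markers differed in how they stood in Med12cKO replicates 2 and 3. Atp2a1, the calcium pump of fast skeletal muscle, measured 27.7, 4.34 and 2.91 CPM in Med12cKO, against 2.76, 4.001 and 3.92 CPM in control. The fast myosin light chain gene Mylpf measured 43.4, 7.30 and 5.60 CPM in Med12cKO, against 4.83, 5.14 and 6.22 CPM in control. In Med12cKO replicate 2 both genes were a little above every control library, and in replicate 3 they lay within the control range. Other markers lay below every control library. Tnni2 measured 2.57 and 2.26 CPM in Med12cKO replicates 2 and 3, against a lowest control value of 4.67 CPM. Cacna1s, with 12 and 8 counts there, measured 1.18 and 0.861 CPM, against a lowest control value of 1.24 CPM. Tnnc2 lay below in replicate 3 alone, at 0.753 CPM against 1.91 CPM. On the other side, 9 markers in replicate 2 and 8 in replicate 3 were above every control library. Ryr1, the release channel of skeletal muscle, was at 3.95, 0.789 and 0.646 CPM in Med12cKO and 0.572 to 0.806 CPM in control, too low to be tested. The myogenic regulators Myod1, Myf5 and Myf6 did not exceed 0.338 CPM in any library, and Myog did not exceed 1.24 CPM. Mybpc2, the fast myosin-binding protein C, was higher in every Med12cKO library (18.5, 16.7 and 11.7 CPM) than in control (7.25, 8.19 and 5.36 CPM), and Mybpc1 (21.2, 4.64 and 3.77 CPM in Med12cKO, against 1.61, 2.57 and 1.53 CPM in control) and Tnnt3 also had separated groups. Of the 23 markers 15 were tested, 13 had a positive log2 fold change, and their median was 1.17. None passed edgeR over all genes (0 of 15), and 2 were higher at an unadjusted p under 0.05, which 3.78% of all genes reached in either direction. DESeq2 called Mybpc2 and Mybpc1 higher (adjusted p of 0.015 and 0.033), against 0.508% of the genes to which it gave an adjusted p. Without Med12cKO replicate 1 the log2 fold change of Casq1 was as large as with it, at 2.33 with an SE of 0.27 (adjusted p = 0.085 in edgeR). Without both libraries that held thymus transcripts, which left 2 libraries a group, it was 2.13 (adjusted p = 0.0022 in edgeR). With 2 a group the spread is poorly estimated. The part of skeletal muscle transcripts in the Casq1 difference was not tested.

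**Figure D4:**
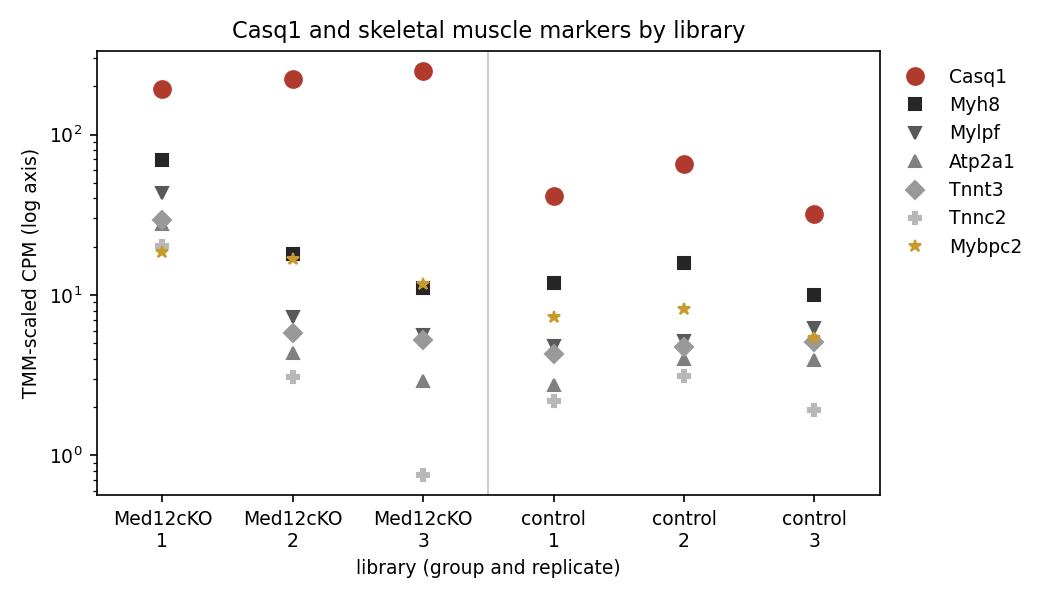
TMM-scaled CPM on a log axis of Casq1 and 6 skeletal muscle markers in each library, Med12cKO replicates 1 to 3 at the left and control replicates 1 to 3 at the right. Myh8, Mylpf, Atp2a1, Tnnt3 and Tnnc2 stand out in Med12cKO replicate 1, where Mylpf reached 43.4 CPM, while Casq1 is at 192 to 249 CPM in all 3 Med12cKO libraries.

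Marker lists of other cell types were summed in each library. Such sums do not separate the number of cells from the RNA per cell. Ventricular cardiomyocyte markers summed to 41569 to 50198 CPM in Med12cKO replicates 1 and 2 and 52758 CPM in replicate 3. The control sums were 52407 to 66588 CPM. Of the 13 markers 12 had a negative log2 fold change. Myh7, Ryr2 and Pln lay wholly below control, and DESeq2 called Ryr2 and Pln lower. Ryr2 and Pln are calcium-handling genes that appear again below among the partners, so these are not separate results. Atrial markers summed to 3825 to 5428 CPM in Med12cKO and 4118 to 5459 CPM in control, with 11 of 14 negative. Of the 14 atrial markers 6 lay wholly below control and 7, Sln among them, were lower at an unadjusted p under 0.05. DESeq2 called 4 lower, namely Myl7, Gja5, Mybphl and Dkk3. Of all genes tested, 3.64% lay wholly below control and 3.78% reached that p in either direction. DESeq2 called 0.508% of the genes to which it gave an adjusted p. Smooth muscle markers summed to 1297 to 2083 CPM in Med12cKO and 725 to 1291 CPM in control, so the sums nearly met. Of the 8 markers 7 were positive. Cnn1 alone had separated groups and was called by edgeR, and the groups of the others overlapped. At an unadjusted p under 0.05 in edgeR 3 of the 8 were higher, namely Cnn1, Tagln and Acta2. That p was reached by 3.78% of all genes in either direction. Of all genes tested, 4.59% lay wholly above control and edgeR called 0.022%. Fibroblast (7351 to 11357 CPM in Med12cKO, 8607 to 9863 CPM in control) and endothelial markers (1396 to 1640 and 1524 to 1684 CPM) overlapped between groups. Erythroid markers did as well (40.3 to 83.7 and 50.5 to 97.5 CPM), with 4 of the 7 in the table at 0 in every library. These 4 were the globin genes Hba-a1, Hba-a2, Hbb-bs and Hbb-bt, while Alas2 had 366 to 939 counts. The erythroid sum therefore holds no globin counts, for a reason that was not tested. The part of these differences in the values of the 9 genes was not tested. The description of each sample opens with the letter I or J, whose meaning is not stated. In the I libraries, 2 a group, Casq1 had a log2 fold change of 2.19 with an SE of 0.41 and was not called by edgeR (adjusted p = 0.978), and in the single J library of each group it was at 222 CPM in Med12cKO and 41.7 CPM in control.

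The partners of the junctional proteins were counted from lists. Of 27 genes of the calcium release unit 24 were tested, 0 passed edgeR over all genes, and at an unadjusted p under 0.05 there was 1 higher and 1 lower, where 3.78% of the whole table reached that p in either direction. DESeq2 called the same 2, against 0.508% of all genes to which it gave an adjusted p. The higher one was Sypl2, which encodes mitsugumin-29 of the skeletal triad junction, at 10.1, 6.02 and 5.49 CPM in Med12cKO, against 2.19, 2.48 and 2.87 CPM in control (log2 fold change 1.51, SE 0.30; DESeq2 adjusted p = 0.036, edgeR 0.255). Med12cKO replicate 1, which held the most skeletal muscle transcripts, had the highest value. The lower one was Ryr2, the cardiac release channel that calsequestrin and the anchors sit on. It measured 665, 898 and 711 CPM in Med12cKO, against 1211, 1458 and 1229 CPM in control, and the groups did not overlap (log2 fold change −0.78, SE 0.16). The adjusted p of Ryr2 was 0.300 in edgeR. The median log2 fold change of the 24 genes was 0.11, with 16 above 0.

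Of 10 genes for calcium uptake and extrusion 8 were tested, 0 passed edgeR over all genes, and 3 were lower at an unadjusted p under 0.05, a p that 3.78% of the whole table reached in either direction. They were the calcium pump gene Atp2a2 (log2 fold change −0.75, SE 0.18), its inhibitor Pln (−0.76, SE 0.16) and Sln, the atrial regulator of the pump (−0.44, SE 0.16), whose groups overlapped. DESeq2 called Atp2a2 and Pln, 2 of the 8, against 0.508% of all genes. Of 19 genes for calcium binding and protein folding in the endoplasmic and sarcoplasmic reticulum 18 were tested, and 0 had an unadjusted p under 0.05 in edgeR or passed DESeq2. Their median log2 fold change was 0.12 with 15 above 0, and it was −0.01 for uptake and extrusion with 3 of 8 above 0. Calr, which encodes calreticulin, the luminal calcium buffer of most cells, had a log2 fold change of 0.13 (SE 0.13). Of these 18 genes 3 lay wholly above control (Rcn1, Sdf4 and Fam20c), against 4.59% of all genes, and 1 wholly below (Stim1), against 3.64%. Fam20c, the kinase of secreted and luminal proteins, had a log2 fold change of 0.19 (SE 0.14). Its groups all but met, at 21.31 CPM in Med12cKO replicate 1 and 21.29 CPM in control replicate 1.

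The number of Casq2 counts per Ryr2 count was 2.17, 1.78 and 2.30 in Med12cKO, against 1.11, 0.811 and 0.794 in control, so the groups were separated. The same held for Trdn, Asph, Jph2 and Hrc, whose mean ratio to Ryr2 was between 1.76 and 1.98 times as high in Med12cKO. This was not particular to them: in 76.1% of all genes tested the ratio to Ryr2 was higher in all Med12cKO libraries than in any control library, and the median gene had 1.74 times the control ratio. The ratio of Casq2 to Ryr2, at 2.30 times, was larger than that median and those of the 4 other genes.

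The 5 genes whose log2 CPM profile over the 6 libraries was nearest to that of Casq1, each centred on its own mean, were Cnn1, Krt80, Nkd2, Ect2l and Hspa1l, out of 12953 compared. Their root mean square difference from Casq1 was 0.54, 0.56, 0.57, 0.60 and 0.61 on the log2 scale, against a median of 1.21 over all genes and 0.98 for Casq2. Since Casq1 separates the groups, nearness mostly reflects the step between groups. Cnn1, which encodes calponin 1, measured 74.9, 116 and 84.7 CPM in Med12cKO, against 34.2, 23.9 and 27.2 CPM in control. The other 4 were between 1.25 and 1.55 in log2 fold change and at lower levels. The nearest protein-coding gene on the chromosome, Pea15a, lies 3.09 kb from Casq1 on the same strand. It was at 236 ± 9.04 CPM in Med12cKO and 178 ± 13.1 CPM in control. Its groups did not overlap, and edgeR did not call it (log2 fold change 0.41, SE 0.11, adjusted p = 0.585). Dcaf8, at 12.9 kb, had −0.08 (SE 0.12), and Igsf8, at 41.8 kb, had −0.01 (SE 0.22). Atp1a4, at 3.65 kb on the other side, had too few reads to be tested.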

How the data were processed

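The authors deposited unnormalized read counts for 24062 gene symbols, and each of the 6 count columns is named by a sample's description. Per the submitters' processing notes, TopHat2 2.0.0, featureCounts, edgeR 3.14.0 and GRCm38 (mm10) were used. The annotation, strand setting and read length are not given in the sources used here. Groups and replicate numbers come from the sample titles.

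Counts were tested with edgeR 4.0.16 in R 4.3.3 (TMM, filterByExpr with a minimum count of 10 and total of 15, quasi-likelihood F test with robust dispersions, Benjamini-Hochberg over all 13629 genes tested, threshold 0.05). Each SE was obtained from the log2 fold change and the F value, and 95% intervals use the moderated degrees of freedom. Exact permutation tests ran over the 20 arrangements of the libraries. DESeq2 1.42.0, limma-voom (limma 3.58.1), other scalings and filters, blocks and left-out libraries were alternatives. The tests were also run on counts simulated from edgeR's own fitted dispersions. Because that setting takes those dispersions as true, it cannot decide between edgeR and DESeq2 on Casq1. Exon lengths, positions and coding sequences came from GENCODE M21. The named genes were all 9, Med12, partners with an unadjusted p under 0.05 and separated groups, and the 5 profiles nearest to Casq1. Other genes were named after their values were seen. The 9 genes and the lists were chosen with earlier results of these data known. Counts of 2 libraries of a group differed beyond sampling noise in every case (chi-square over its degrees of freedom, 14.5 to 29.3).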

Additional observations from a re-analysis of the deposited data

How the results depend on the processing

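In all 17 alternatives the log2 fold changes of Casq1 (2.04 to 2.59), Casq2, Asph, Jph1, Hrc, Tmem38a and Tmem38b stayed above 0 and that of Med12 stayed below. Of the 9 genes Casq1 alone was called in any, in 7 of the 17: by DESeq2 (1 of the 9), limma-voom (1), library totals only (1), a term for thymus transcripts (1), without the libraries with thymus transcripts (1), and without control replicate 2 or control replicate 3 (0 to 1 when a library was left out). Med12 was called by DESeq2 (−1.06). Jph2 turned to −0.0028 in the I libraries and ran from −0.036 to 0.077, and Trdn from −0.021 to 0.21, when single libraries were left out; the cause was not tested. DESeq2 called 65 genes in all, the I libraries gave 1, and leaving out a library gave 1 to 3, against 3. With the replicate number as a block 2 genes were called, and the adjusted p of Casq1 was 0.168. Same-numbered libraries correlated at −0.40, 0.52 and −0.39, so the numbers were not taken to pair them. The Casq1 share of calsequestrin counts was 8.16 to 9.30 percentage points higher in Med12cKO under its alternatives. Without replication beyond 3 a group, permutation p cannot fall under 0.10.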
